A study of Mus musculus with 8 samples.

Results

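The Hox cluster genes were followed across the 4 conditions of a spermatogonial stem cell (SSC) culture. Every row whose symbol was Hox, a cluster letter from a to d and a paralogue number was taken from a table of 55421 genes, and antisense and other noncoding names were left out, which gave 39 protein-coding genes. The 38 described here are 10 of HoxA on chromosome 6, 10 of HoxB on chromosome 11, 9 of HoxC on chromosome 15 and 9 of HoxD on chromosome 2. Germ cells from the testes of 6-day-old pups of C57BL/6XDBA/2 F1 hybrid background were grown on irradiated mouse embryonic fibroblasts (MEFs) bought from a supplier, with GDNF, bFGF and N2 in the medium, and the mRNA of 2 libraries per condition was sequenced. Control cultures stayed in complete medium (Veh). The other conditions were the same medium with 100 nM retinoic acid (RA), nutrient restriction in a mixture of 10% complete medium and 90% Earle's Balanced Salt Solution, or EBSS (NR), and nutrient restriction together with RA (NRRA), each for 2 days. The study's reporting summary describes the 2 libraries of a condition as independent biological replicates, and the labels do not say which culture each came from.

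Hox genes encode homeodomain transcription factors and lie in 4 clusters in which nearly all genes are read in the same direction. Genes of the same number in different clusters are paralogues, and low numbers lie at the 3′ end of a cluster and are used toward the head of the embryo, whereas high numbers lie at the 5′ end and are used toward the tail. RA is a classical activator of the 3′ genes, through receptors that bind response elements in and around the clusters, and it is also the signal that drives spermatogonia into differentiation. Fibroblasts keep a Hox pattern that reflects the body site they came from, so both the germ cells and the feeder cells of such a culture can hold Hox transcripts.

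The total count per library ran from 19261333 to 30023585. Levels are given in CPM, that is counts scaled by the TMM-adjusted library total, and levels of different genes are compared only as RPKM, in which CPM is divided by the length of the merged exons in kb. Calls of higher or lower needed an adjusted p under 0.05 in edgeR's quasi-likelihood test and a difference of at least 2-fold. All 5 genes that report RA treatment rose in RA against Veh, among them *Rarb*, the RA receptor beta gene, from 0.446 and 0.417 CPM to 42.2 and 39.8 CPM. In NR against Veh, with no RA added, 2 of the 5 were called. *Stra8* was higher, with means of 1.33 CPM in Veh and 14.4 CPM in NR. *Cyp26b1* was lower, with means of 122 CPM in Veh and 35.9 CPM in NR. When the RA effect was compared between complete and restricted medium, 1 of the 5 was called higher and 1 lower. The part of these changes in the Hox results was not tested. The germ cell genes *Ddx4* and *Dazl* were at 131 CPM or more in every library, and the 12 germ cell markers summed to between 1344 and 1655 CPM. Within that list 5 genes were called in RA against Veh, 41.7% beside 7.49% of all genes tested, and 6 in NRRA against Veh, 50% beside 15.9%. The stem cell gene *Zbtb16* had means of 164 CPM in Veh and 31.8 CPM with RA. For *Kit*, a gene of differentiating spermatogonia, the means were 6.32 and 207 CPM. The 15 fibroblast markers summed to between 12123 and 12323 CPM in Veh, 9389 and 10143 with RA, 24396 and 25641 with NR, and 21026 and 21598 with NRRA. Fibroblast marker RNA was thus present in all 8 libraries, and its sum, led by *Col1a1*, *Col1a2* and *Col3a1*, was higher in both conditions with nutrient restriction. The list did not rise as a set in NRRA, where 8 of the 15 were higher and 7 lower than in Veh at the adjusted p alone. The smooth muscle and peritubular myoid markers, led by *Acta2*, summed to 173 and 167 CPM in Veh, 141 and 136 with RA, 673 and 688 with NR, and 1095 and 1085 with NRRA. In NR against Veh 4 of these 5 markers were higher and 1 lower at the adjusted p alone. The lower one was *Des*, with means of 6.39 CPM in Veh, 3.71 with NR, and 5.90 with NRRA. The 6 Sertoli cell markers summed to between 12.2 and 45.4 CPM and the 5 Leydig cell markers to between 5.77 and 15.0 CPM, with *Fshr* at 0.0482 CPM or less and *Insl3* at 0.322 CPM or less. Most of the Sertoli sum was *Sox9*, with means of 31.9 CPM in Veh, 14.7 with RA, 36.1 with NR, and 7.14 with NRRA, and it was called lower in RA and in NRRA against Veh. The list did not fall as a set in RA, where 3 of the 4 Sertoli markers tested had positive log2 changes against Veh. *Wt1* had means of 4.56 CPM in Veh, 8.96 with RA, 6.75 with NR, and 4.50 with NRRA. In NRRA against Veh 1 of the 4 had a positive value and was called higher, and 3 had negative values. Libraries of whole cultures cannot tell fewer cells of a type from less RNA per cell, and the part of these marker changes in the Hox results was not tested.

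Of the 38 Hox genes, 33 passed the filter on low counts. The 5 that did not were all in HoxD. *Hoxd12* had 0 counts in every library, and *Hoxd13* had 5 counts in RA replicate 1, 2 and 1 in NRRA, 1 in NR replicate 2, and 0 in the other libraries. The highest count of *Hoxd11* in a library was 8, that of *Hoxd1* 10 and that of *Hoxd3* 13. Each of these 3 maxima came from an NRRA library, and *Hoxd3* also had 11 counts in NR replicate 2. In CPM *Hoxd3* stood at 0.418 in NR replicate 2 and 0.417 in NRRA replicate 2.

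In Veh, central and posterior genes of HoxB and HoxC stood highest. *Hoxb9* led at 35.2 and 36.0 RPKM, followed by *Hoxb8* at 28.8 and 25.2, *Hoxc6* at 23.9 and 24.5, *Hoxb6* at 22.8 and 20.3, and *Hoxb7* at 19.9 and 17.3 RPKM. The 2 libraries of each of these genes did not overlap with those of the next gene in the order, although from *Hoxb8* to *Hoxb7* each gap was smaller than the spread of one of the genes beside it. *Hoxc12* at 13.5 and 12.9 RPKM and *Hoxb4* at 13.1 and 12.7 RPKM overlapped, as did *Hoxc13* at 11.2 and 10.6 and *Hoxc8* at 10.5 and 10.7 RPKM. The anterior genes were far lower, with *Hoxb1* at 1.47 and 1.48 RPKM and *Hoxa2* at 0.335 and 0.264 RPKM, while the anterior *Hoxb2* and *Hoxb3* stood at 6.52 ± 0.332 and 7.55 ± 0.438 RPKM (SD, n = 2). Of HoxD, only *Hoxd8* exceeded 1 RPKM in Veh, at 3.88 and 3.53 RPKM.

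The order changed with the conditions. *Hoxb8* held the first rank in RA at 38.4 and 36.5 RPKM, and *Hoxc6* the first rank in NRRA at 20.7 and 21.2 RPKM. *Hoxc12* went from rank 7 in Veh to rank 30 in NRRA and *Hoxc11* from rank 12 to rank 31, whereas *Hoxa5* went from rank 19 to rank 7. *Hoxb1* was at rank 23 in Veh, 13 with RA, 30 with NR, and 20 with NRRA.

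**Figure D1:**
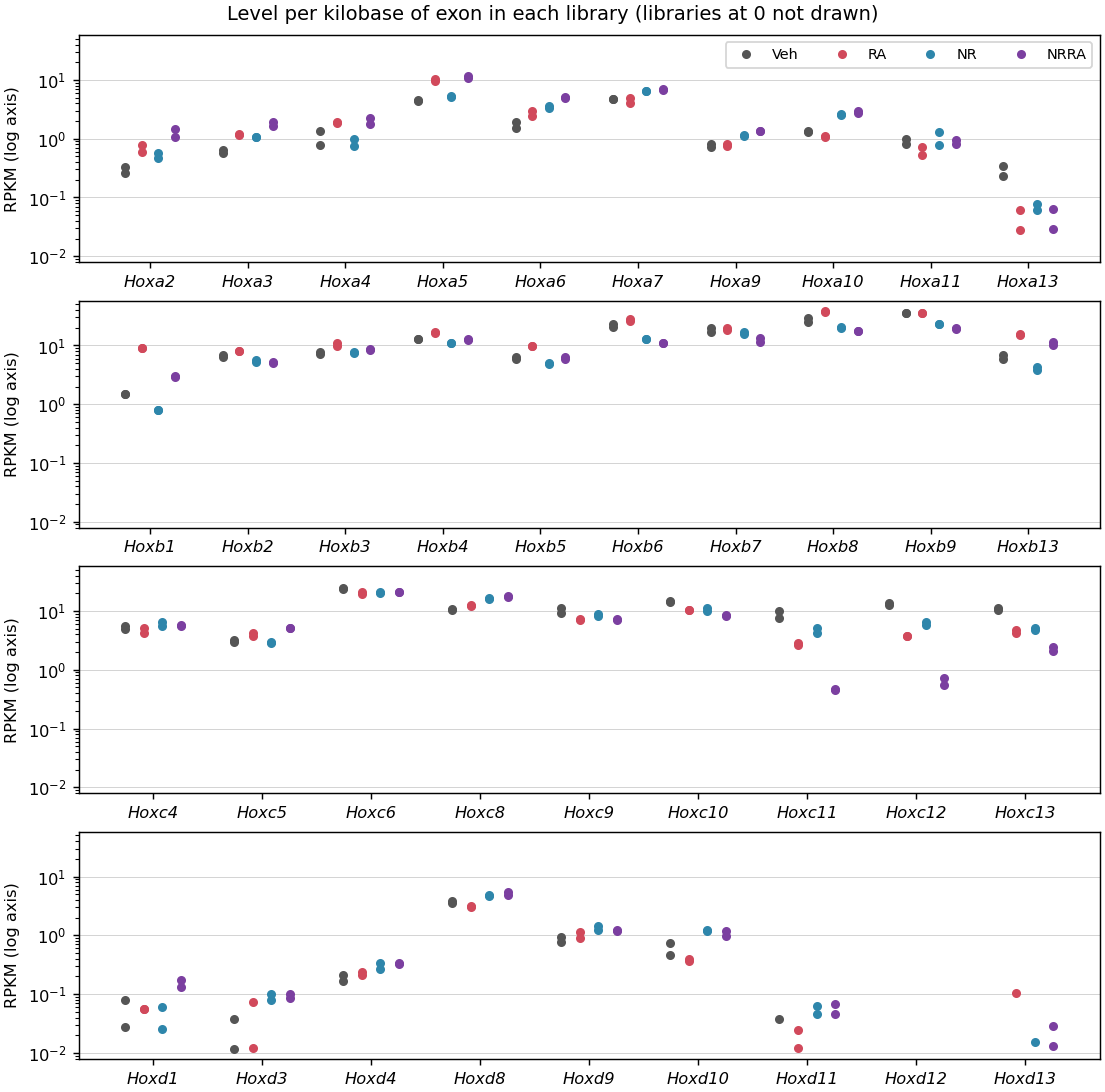
Level of each of the 38 Hox genes in each library as RPKM on a log axis, 1 panel per cluster, with genes in order of paralogue number and points coloured by condition (2 libraries each, values of 0 not drawn). The 2 NRRA points of *Hoxc11* and *Hoxc12* lie below 1 RPKM and apart from all others of those genes, and *Hoxb1* spreads from 0.785 RPKM in NR to 9.15 RPKM in RA.

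Summed over the described genes of a cluster, the clusters moved differently. HoxA came to 41.0 ± 0.501 CPM in Veh, 54.8 ± 2.71 with RA, 57.5 ± 1.53 with NR, and 80.3 ± 4.18 with NRRA (SD, n = 2). HoxB came to 356 ± 17.8 CPM in Veh, 469 ± 9.58 with RA, 268 ± 3.17 with NR, and 272 ± 1.87 with NRRA. HoxC was highest in Veh at 222 ± 9.64 CPM and came to 166 ± 1.83 with RA, 190 ± 0.910 with NR, and 171 ± 0.620 with NRRA. HoxA was thus lowest in Veh and highest in NRRA, HoxB was highest in RA and low in both restricted media, and HoxC was highest in Veh. The small HoxD sum was 13.9 ± 1.08 CPM in Veh, 12.5 ± 0.227 with RA, 19.6 ± 0.705 with NR, and 20.7 ± 1.28 with NRRA.

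The comparison of RA with Veh asks what RA did in complete medium. RA raised 4 Hox genes, *Hoxb1*, *Hoxb13*, *Hoxa2* and *Hoxa5*, and lowered 4 posterior genes, *Hoxc11*, *Hoxc12*, *Hoxc13* and *Hoxa13*. These 8 are 24.2% of the 33 tested, beside 7.49% of all 20477 genes tested, of which 4.74% were called higher and 2.75% lower. At the adjusted p alone 15 Hox genes were higher and 7 lower, beside 43.2% of all genes in either direction. The median log2 change was 0.20 over the Hox genes and -0.02 over all genes. By position, all 5 tested genes of groups 1 to 3 were higher at the adjusted p alone, 9 of 15 genes of groups 4 to 8 were higher and 1 lower, and 1 of the 13 tested genes of groups 9 to 13 was higher and 6 lower. None of the 15 fibroblast markers was called in this comparison, and at the adjusted p alone 2 were higher and 10 lower, with a median log2 change of -0.32.

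*Hoxb1* (chr11:96365752-96368256, plus strand, GRCm38), the 3′-most gene of HoxB and a hindbrain patterning gene, gave 3.42 and 3.44 CPM in Veh, 20.8 and 21.3 with RA, 1.83 and 1.82 with NR, and 7.0 and 6.68 with NRRA. The libraries of no condition overlapped with those of another. It rose 6.14-fold in RA against Veh (log2 change 2.62, SE 0.118, adjusted p = 1.25e-15), the largest rise among the 38 genes described. *Hoxb13* (chr11:96194316-96197447), at the opposite end of the same cluster and known from prostate and tail development, gave 15.1 and 12.8 CPM in Veh, 33.6 and 34.4 with RA, 8.58 and 9.53 with NR, and 24.8 and 22.8 with NRRA. It rose 2.44-fold in RA (log2 change 1.29, SE 0.0865, adjusted p = 4.01e-12), and was the only gene of groups 9 to 13 that did so. Between these ends of HoxB no gene reached 2-fold in RA. *Hoxb5* (log2 change 0.68, SE 0.0806) and *Hoxb8* (0.47, SE 0.0588) had the largest values among them, 6 of the 8 were higher at the adjusted p alone, and *Hoxb7* and *Hoxb9* had log2 changes of 0.03 and 0.00.

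In HoxA, *Hoxa5* (chr6:52201754-52204587, minus strand), which patterns the cervical and thoracic region and the lung, gave 8.37 and 8.65 CPM in Veh, 19.1 and 17.9 with RA, 9.54 and 9.99 with NR, and 21.7 and 20.4 with NRRA. It was about equally high in both conditions with RA, and rose 2.17-fold in RA against Veh (log2 change 1.12, SE 0.0984, adjusted p = 7.63e-10). *Hoxa2* (chr6:52162417-52164831, minus strand), a gene of the second branchial arch, gave 0.594 and 0.469 CPM in Veh and 1.07 and 1.39 in RA, a 2.34-fold rise (log2 change 1.23, SE 0.366, adjusted p = 0.00808) that rested on a mean of 32.1 counts per library. Without Veh replicate 2 its log2 change was 1.09 (adjusted p = 0.0546), and without RA replicate 2 it was 1.00 (adjusted p = 0.116). *Hoxa3*, *Hoxa4* and *Hoxa6* were higher at the adjusted p alone, with log2 changes of 0.96, 0.87 and 0.67.

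The falling genes sat at the 5′ ends. *Hoxc12* (chr15:102936757-102938609) gave 14 and 13.3 CPM in Veh, 3.93 and 3.85 with RA, 6.79 and 5.96 with NR, and 0.750 and 0.578 with NRRA. *Hoxc11* (chr15:102954427-102957708), which acts in hindlimb and kidney development, gave 20.6 and 15.3 CPM in Veh, 5.30 and 5.72 with RA, 8.53 and 10.5 with NR, and 0.929 and 0.963 with NRRA. *Hoxc13* (chr15:102921103-102928814), a regulator of hair and nail keratins, gave 27.5 and 26.1 CPM in Veh, 11.8 and 10.2 with RA, 12.7 and 11.9 with NR, and 5.97 and 5.20 with NRRA. All 3 were highest in Veh and lowest in NRRA, with no overlap between Veh and any other condition. In RA against Veh *Hoxc12* fell 3.51-fold (log2 change -1.81, SE 0.130, adjusted p = 1.41e-11), *Hoxc11* 3.24-fold (log2 change -1.70, SE 0.136, adjusted p = 1.24e-10) and *Hoxc13* 2.46-fold (log2 change -1.30, SE 0.0936, adjusted p = 1.62e-11). The neighbours *Hoxc9* and *Hoxc10* were lower at the adjusted p alone, with log2 changes of -0.51 and -0.47.

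*Hoxa13* (chr6:52257694-52260880, minus strand), a gene of the limb end, the genital tubercle and the hindgut, had 17 and 11 counts in Veh, 3 and 2 with RA, 4 and 4 with NR, and 2 and 5 with NRRA. Veh alone stood above 5 counts. Scaled to library size, the summed counts of RA were 0.145 times those of Veh (95% exact interval 0.0438 to 0.381), those of NR 0.239 times (0.0941 to 0.538) and those of NRRA 0.167 times (0.0614 to 0.390); these intervals cover counting error only. The fit across all genes called it lower in all 3 (adjusted p = 0.000782, 0.00425 and 0.000413), and in NR the call was lost without Veh replicate 1 (log2 change -1.71, adjusted p = 0.0873) and without NR replicate 2 (log2 change -1.84, adjusted p = 0.0673).

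**Figure D2:**
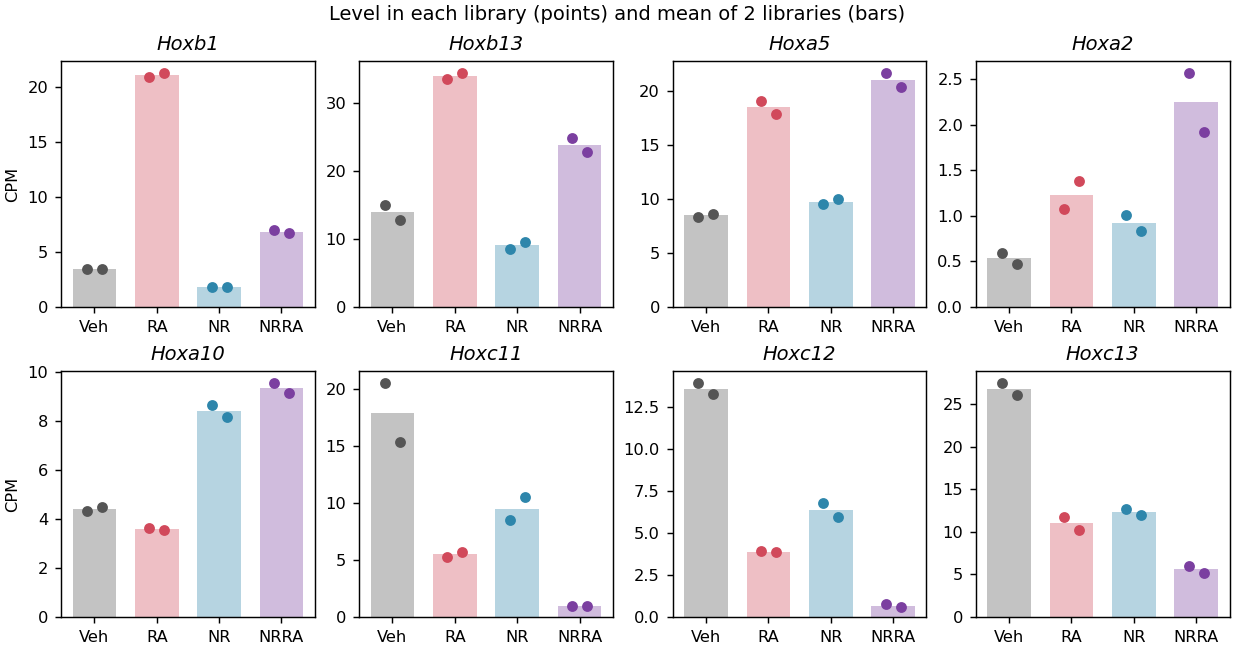
CPM of 8 Hox genes in each library (points) with the mean of 2 libraries (bars), 1 panel per gene and 1 bar per condition, each panel on its own linear axis from 0. *Hoxb1* and *Hoxb13* are highest in RA, *Hoxa2* in NRRA, *Hoxa10* in both restricted media, and *Hoxc11*, *Hoxc12* and *Hoxc13* are highest in Veh and lowest in NRRA.

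The sequence before the start of a gene is shown for the 3 genes that rose in RA and have an entry in the RefSeq promoter table (build GRCm38.p6), since they let a reader see what the 250 bases next to RA-responsive starts hold. Each is written 5′ to 3′ on the strand of the gene and ends at the base before the annotated start. Capitals mark a match to TGATNNAT, the site at which a PBX protein and a Hox protein can bind side by side. *Hoxb1* is chr11:96365508-96365757 on the plus strand, *Hoxa2* is chr6:52164832-52165081 and *Hoxa5* is chr6:52204588-52204837, both on the minus strand.
Hoxb1: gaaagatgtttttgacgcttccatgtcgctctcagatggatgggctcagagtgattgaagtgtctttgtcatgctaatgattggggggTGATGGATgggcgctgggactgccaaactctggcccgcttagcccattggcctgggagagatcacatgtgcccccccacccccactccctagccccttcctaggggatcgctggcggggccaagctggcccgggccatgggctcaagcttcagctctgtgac
Hoxa2: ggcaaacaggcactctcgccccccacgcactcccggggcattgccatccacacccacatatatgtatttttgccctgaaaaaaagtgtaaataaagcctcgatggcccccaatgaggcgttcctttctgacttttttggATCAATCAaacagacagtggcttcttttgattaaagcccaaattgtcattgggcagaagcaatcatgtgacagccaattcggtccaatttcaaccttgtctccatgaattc
Hoxa5: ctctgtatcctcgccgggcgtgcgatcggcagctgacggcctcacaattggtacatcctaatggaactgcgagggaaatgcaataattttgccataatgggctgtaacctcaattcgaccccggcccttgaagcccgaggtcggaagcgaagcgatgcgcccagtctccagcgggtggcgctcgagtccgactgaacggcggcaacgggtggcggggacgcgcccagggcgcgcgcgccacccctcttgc

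The match lies 162 to 155 bases before the start of *Hoxb1* and 111 to 104 bases before that of *Hoxa2*, there on the opposite strand, and *Hoxa5* has none. Of the 8 Hox genes called in RA against Veh, 4 had an entry in the promoter table, the fourth being *Hoxa13*. *Hoxb13*, *Hoxc11*, *Hoxc12* and *Hoxc13* had none. The table held 24 promoters of 22 Hox genes among 32851. On both strands, TGATNNAT was in 4 of the 24, beside 7.68% of all promoters. The RA receptor half-site AGGTCA was in 6 of 24, beside 14% of all, AGTTCA in 2, beside 11.8%, and GGTTCA in 2, beside 8.85%. None of the half-sites was in the windows of *Hoxb1*, *Hoxa2* or *Hoxa5*. Pairs of half-sites were in none of the 24, both as repeats of AGNTCA spaced by 5 bases, which were in 0.198% of all promoters, and as repeats spaced by 2, which were in 0.0852%. The Hox windows had a median of 58.6% G and C and 12.5 CG steps, beside 52.4% and 6 over all promoters, and ran from 40.4% for *Hoxd4* to 80.0% for *Hoxa13*. These letters describe the windows only.

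The comparison of NR with Veh asks what nutrient restriction did without RA. The mixture with EBSS also diluted the GDNF, bFGF and N2 of the complete medium, in NRRA as in NR. Effects of fewer nutrients and of less of these factors cannot be told apart. The clusters moved differently in NR. At the adjusted p alone, 5 of 10 HoxA genes were higher and 1 lower, and 3 of 4 tested HoxD genes were higher. In HoxB 9 of 10 genes were lower at the adjusted p alone, though none of those by 2-fold, and in HoxC 1 of 9 was higher and 6 lower. By sign alone, 8 of 10 HoxA genes and all 4 tested HoxD genes had positive log2 changes. Of the 33 Hox genes tested, 1 rose, *Hoxd10*, and 3 fell, *Hoxa13*, *Hoxc12* and *Hoxc13*. These 4 are 12.1%, beside 8.29% of all genes, of which 5.33% were called higher and 2.96% lower, so the share of Hox genes called was near that of all genes. At the adjusted p alone 9 were higher and 16 lower, beside 43.9% of all genes. The medians were -0.20 over the Hox genes and 0.01 over all genes.

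*Hoxd10* (chr2:74691924-74695105, plus strand), a gene of the hindlimb and the lumbar motor neurons, gave 1.34 and 0.834 CPM in Veh, 0.663 and 0.728 with RA, 2.26 and 2.13 with NR, and 1.79 and 2.15 with NRRA. Both restricted media stood above both complete ones. The rise in NR was at the fold threshold (log2 change 1.00, SE 0.276, adjusted p = 0.00423) and the call was lost when any of 6 of the 8 libraries was left out. The log2 change was then 0.72 (adjusted p = 0.0723) without Veh replicate 2, 0.98 without NR replicate 1 and just under 1 without a library of RA or NRRA. *Hoxc12* fell 2.15-fold (log2 change -1.10, SE 0.119, adjusted p = 2.16e-08) and *Hoxc13* 2.18-fold (log2 change -1.13, SE 0.0920, adjusted p = 1.17e-10). Without NR replicate 2 the log2 change of *Hoxc12* was -0.99, just under 2-fold. Their neighbour *Hoxc11* had a log2 change of -0.90 (SE 0.124, adjusted p = 1.13e-06).

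In HoxB the values in NR against Veh ran from -0.91 for *Hoxb1* to 0.00 for *Hoxb3*. *Hoxb6* gave 44.8 and 39.9 CPM in Veh, 55.1 and 51.5 with RA, 25.1 and 25.2 with NR, and 21.3 and 21.6 with NRRA, and its log2 change in NR was -0.75 (SE 0.0712, adjusted p = 1.95e-09). *Hoxb9* gave 90.6 and 92.7 CPM in Veh, 90.7 and 92.0 with RA, 60.0 and 60.1 with NR, and 50.2 and 49.5 with NRRA. Its Veh and RA libraries overlapped, and its log2 change in NR was -0.61 (SE 0.0521). In HoxA the largest positive values were those of *Hoxa6* at 0.99, *Hoxa10* at 0.93 and *Hoxa3* at 0.80, all with adjusted p under 0.05. *Hoxc8* stood apart from the rest of HoxC with 29.7 and 30.4 CPM in Veh, 34.1 and 35.7 with RA, 45.4 and 46.5 with NR, and 50.1 and 49.0 with NRRA, a log2 change of 0.61 in NR (SE 0.0636). In this comparison 12 of the 15 fibroblast markers were higher at the adjusted p alone, 5 of them called, and 2 were lower. Their median log2 change was 0.63, and they included *Col3a1* at 1.54 and *Prrx1*, a mesenchymal homeobox gene, at 0.13.

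**Figure D3:**
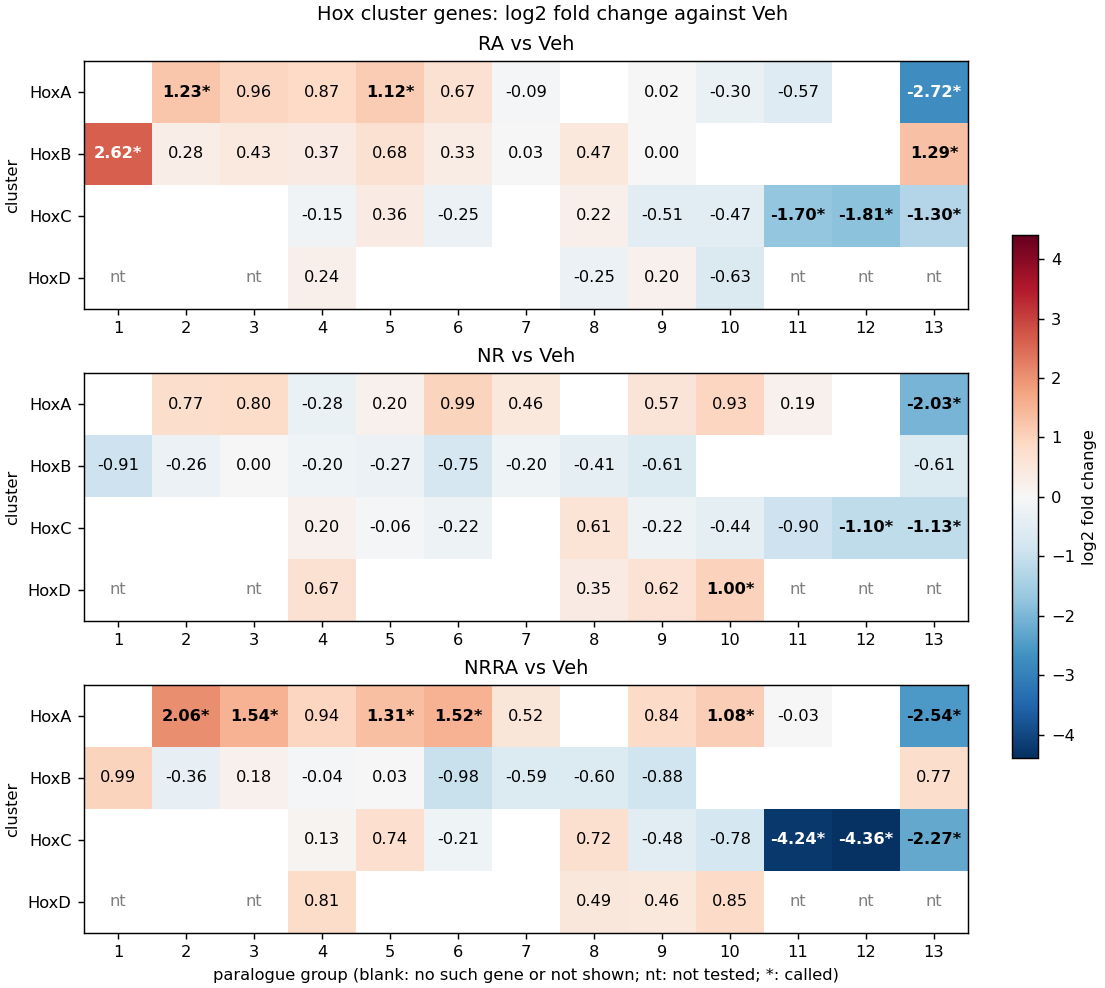
Log2 fold change of each Hox gene against Veh in RA, NR and NRRA, with clusters as rows and paralogue groups as columns; red is higher than Veh and blue lower, bold values with an asterisk were called, and nt marks genes that were not tested, while blank cells hold no value. The right end of the HoxC row is blue in all 3 panels. The HoxA row is mostly red in NR and NRRA, and in RA it goes from red at low numbers to blue at *Hoxa13*. Most of the HoxB row is red in RA and blue in NR.

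With both treatments, NRRA against Veh, 5 HoxA genes rose and the 5′ end of HoxC fell further than with either treatment alone. The genes that rose were *Hoxa2*, *Hoxa3*, *Hoxa5*, *Hoxa6* and *Hoxa10*, and those that fell were *Hoxc11*, *Hoxc12*, *Hoxc13* and *Hoxa13*. These 9 are 27.3% of the 33 tested, beside 15.9% of all genes, of which 9.91% were called higher and 6.02% lower. At the adjusted p alone 15 were higher and 12 lower, beside 58.9% of all genes. The medians were 0.18 over the Hox genes and 0.03 over all genes. HoxA had 6 of 10 genes called, HoxC 3 of 9, and HoxB and HoxD none of 10 and none of 4.

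*Hoxa2* gave 1.01 and 0.835 CPM in NR and 2.57 and 1.93 in NRRA, and rose 4.17-fold in NRRA against Veh (log2 change 2.06, SE 0.318, adjusted p = 3.72e-06). *Hoxa3* (chr6:52169062-52213336, minus strand), which patterns the third pharyngeal arch, gave 3.86 and 3.44 CPM in Veh, 7.34 and 6.94 with RA, 6.36 and 6.34 with NR, and 11.4 and 9.89 with NRRA. Each treatment alone gave values between those of Veh and NRRA, and the rise in NRRA was 2.91-fold (log2 change 1.54, SE 0.135, adjusted p = 2.37e-10). *Hoxa6* (chr6:52206288-52208722, minus strand) gave 1.68 and 1.35 CPM in Veh, 2.14 and 2.64 with RA, 3.13 and 2.96 with NR, and 4.50 and 4.24 with NRRA. It rose 2.86-fold in NRRA (log2 change 1.52, SE 0.203, adjusted p = 4.02e-07).

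*Hoxa10* (chr6:52231197-52240854, minus strand), known from the uterus, the descent of the testis and the lumbar spine, moved with the medium. It gave 4.31 and 4.48 CPM in Veh, 3.62 and 3.54 with RA, 8.62 and 8.16 with NR, and 9.54 and 9.12 with NRRA. It rose 2.12-fold in NRRA against Veh (log2 change 1.08, SE 0.128, adjusted p = 4.75e-08) and 2.61-fold in NRRA against RA (log2 change 1.38, SE 0.127, adjusted p = 9.64e-10). *Hoxa5* rose 2.47-fold in NRRA against Veh (log2 change 1.31, SE 0.0943, adjusted p = 4.93e-12). *Hoxa4*, with 1.24 and 2.14 CPM in Veh, 3.01 and 3.12 with RA, 1.59 and 1.22 with NR, and 3.57 and 2.89 with NRRA, had a log2 change of 0.94 (SE 0.233).

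The largest changes among the genes described were those of *Hoxc12* and *Hoxc11* in NRRA. *Hoxc12* fell 20.5-fold against Veh (log2 change -4.36, SE 0.175, adjusted p = 2.26e-17) and *Hoxc11* 18.9-fold (log2 change -4.24, SE 0.183, adjusted p = 1.03e-16). *Hoxc13* fell 4.81-fold (log2 change -2.27, SE 0.101, adjusted p = 2.15e-16). The next gene of the cluster, *Hoxc10*, had 28.4 and 26.8 CPM in Veh and 16.3 and 15.8 in NRRA, a log2 change of -0.78 (SE 0.0783). In the same comparison 8 of the 15 fibroblast markers were higher and 7 lower at the adjusted p alone, with a median log2 change of 0.35. *S100a4*, a fibroblast marker of that list, fell (log2 change -2.32, SE 0.265, adjusted p = 2.70e-08), from 3.22 and 3.07 CPM in Veh to 0.465 and 0.771 CPM in NRRA.

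The comparison of NRRA with NR asks what RA did in restricted medium. RA raised 5 Hox genes there, *Hoxb1*, *Hoxb13*, *Hoxa2*, *Hoxa4* and *Hoxa5*, and lowered 3, *Hoxc11*, *Hoxc12* and *Hoxc13*. These 8 are 24.2% of those tested, beside 8.70% of all genes, of which 4.56% were called higher and 4.14% lower. At the adjusted p alone 11 were higher and 9 lower, beside 43.4% of all genes, and the medians were 0.07 over the Hox genes and 0.01 over all genes. *Hoxb1* rose 3.73-fold (log2 change 1.90, SE 0.152, adjusted p = 8.29e-11) and *Hoxb13* 2.61-fold (log2 change 1.39, SE 0.0925, adjusted p = 2.30e-12). *Hoxa2* rose 2.44-fold, *Hoxa4* 2.32-fold and *Hoxa5* 2.15-fold, with adjusted p of 0.000308, 0.000108 and 8.14e-11. *Hoxc11* fell 10.1-fold (log2 change -3.34, SE 0.201, adjusted p = 2.92e-13), *Hoxc12* 9.55-fold (log2 change -3.25, SE 0.199, adjusted p = 3.85e-13) and *Hoxc13* 2.20-fold (log2 change -1.14, SE 0.112, adjusted p = 4.07e-09). *Hoxc5* had the largest value below 2-fold among those that were higher outside HoxA, 0.80 (SE 0.0951), with 8.96 and 9.30 CPM in NR and 15.7 and 16.2 in NRRA. No fibroblast marker had a positive value in this comparison, and 13 of 15 were lower at the adjusted p alone, with a median log2 change of -0.40.

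The RA effect in complete medium and in restricted medium rests on different libraries. Across the 33 genes the log2 values of RA against Veh and NRRA against NR had a Pearson r of 0.807 and a Spearman rho of 0.820, and 24 genes had the same sign. The genes share libraries, depth and cluster within each effect, so the coefficient describes these genes and carries no p. The corresponding effect of restriction, NR against Veh and NRRA against RA, had a Pearson r of 0.755 and a Spearman rho of 0.881, with 27 genes of the same sign.

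**Figure D4:**
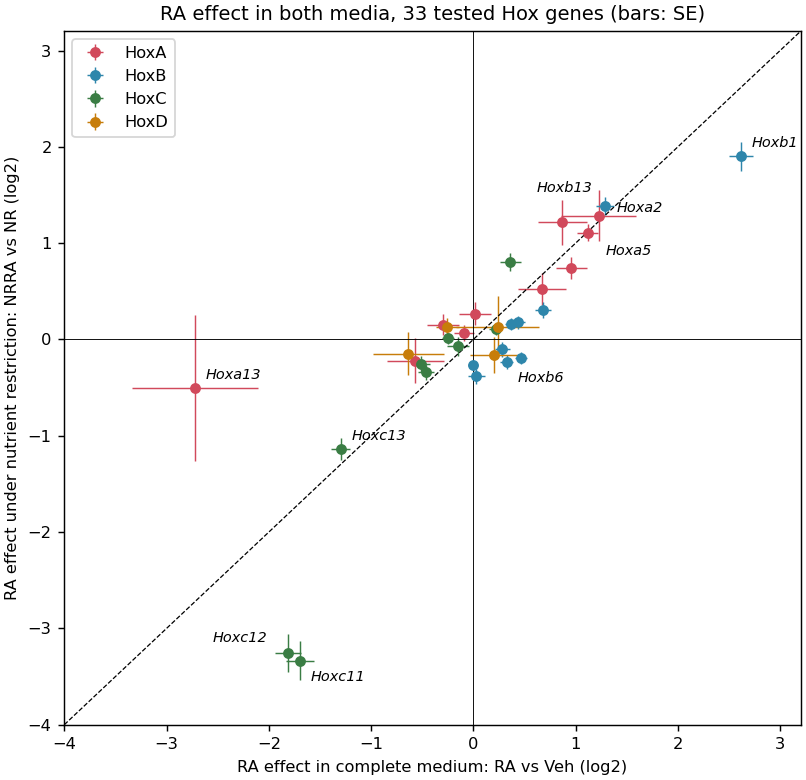
Log2 change with RA in complete medium (x axis, RA against Veh) and in restricted medium (y axis, NRRA against NR) for the 33 tested Hox genes, coloured by cluster, with bars for the SE and a dashed line of equal change. *Hoxc11* and *Hoxc12* lie far below the line, *Hoxb1* and several other HoxB genes lie below it, and *Hoxa5* and *Hoxc13* lie on it or close to it.

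Whether the RA effect differed between the media was tested as the interaction of RA and nutrient restriction. *Hoxc11* (log2 difference -1.64, SE 0.267, adjusted p = 8.72e-05) and *Hoxc12* (log2 difference -1.44, SE 0.263, adjusted p = 0.000333) were called lower. On the log2 scale, RA thus lowered both more in restricted than in complete medium. For *Hoxc13* the difference was 0.16 (SE 0.148, adjusted p = 0.558). The 2 genes are 6.06% of those tested, beside 2.24% of all genes, of which 0.786% were called higher and 1.46% lower. At the adjusted p alone 2 Hox genes had a higher and 9 a lower RA effect under restriction, beside 13% of all genes, and the median difference was -0.01 over the Hox genes and 0.02 over all genes. HoxB made up 7 of those 9, namely *Hoxb1*, *Hoxb2*, *Hoxb5*, *Hoxb6*, *Hoxb7*, *Hoxb8* and *Hoxb9*, with differences from -0.72 for *Hoxb1* (SE 0.217, adjusted p = 0.0273) to -0.26 for *Hoxb9*. *Hoxa5*, with -0.01 (SE 0.135), and *Hoxb13*, with 0.10 (SE 0.130), showed RA effects of nearly the same size in both media. The value of *Hoxa13* was 2.21 with an SE of 1.04 (adjusted p = 0.180), which its low counts leave without a direction.

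The comparison of NRRA with RA asks what restriction did in the presence of RA. All 10 HoxB genes were lower at the adjusted p alone and all 10 HoxA genes had positive values, 6 of them at the adjusted p alone. Called higher were *Hoxa10* and *Hoxd10*, and called lower were *Hoxb1*, *Hoxb6*, *Hoxb8*, *Hoxc11* and *Hoxc12*. These 7 are 21.2% of those tested, beside 8.29% of all genes, of which 4.61% were called higher and 3.68% lower, and at the adjusted p alone 11 were higher and 14 lower, beside 40.3% of all genes. The medians were 0.07 over the Hox genes and 0.02 over all genes. *Hoxb1* fell 3.08-fold (log2 change -1.62, SE 0.0945, adjusted p = 9.04e-14) and *Hoxb6* 2.48-fold (log2 change -1.31, SE 0.0671, adjusted p = 6.29e-15). *Hoxb8* (chr11:96281905-96285315, plus strand), with 75.9 and 66.5 CPM in Veh, 101 and 96.1 with RA, 52.5 and 54.7 with NR, and 47.2 and 46.6 with NRRA, fell 2.10-fold (log2 change -1.07, SE 0.0590, adjusted p = 2.82e-14). RA thus went with the highest level of *Hoxb8* in complete medium and the lowest in restricted medium. *Hoxc11* fell 5.83-fold (adjusted p = 4.64e-10), *Hoxc12* fell 5.85-fold (adjusted p = 3.03e-10) and *Hoxd10* rose 2.81-fold (adjusted p = 0.000115). Of the fibroblast markers 10 of 15 were higher at the adjusted p alone, 6 of them called, and 4 were lower, with a median log2 change of 0.65.

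Along the clusters, the log2 change went down with the paralogue number in HoxA and HoxC. In RA against Veh the Spearman rho between log2 change and paralogue number was -0.952 over 10 HoxA genes and -0.850 over 9 HoxC genes. In NRRA against Veh it was -0.842 and -0.867. In NR against Veh it was -0.900 in HoxC but -0.321 in HoxA. HoxB showed less of a slope, with -0.188, -0.212 and -0.406 in RA, NR and NRRA, and *Hoxb13* at its 5′ end had positive values in RA and NRRA, as *Hoxb1* did at the 3′ end. Over the 4 tested HoxD genes rho was -0.80 for RA, 0.40 for NR and 0.20 for NRRA against Veh. Neighbouring genes lie within the same region and share libraries, so these are descriptions with no p. In HoxC the step was sharp: in NRRA against Veh the log2 change went from -0.78 at *Hoxc10*, 65.0 kb from *Hoxc4*, to -4.24 at *Hoxc11*, 79.1 kb from it.

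**Figure D5:**
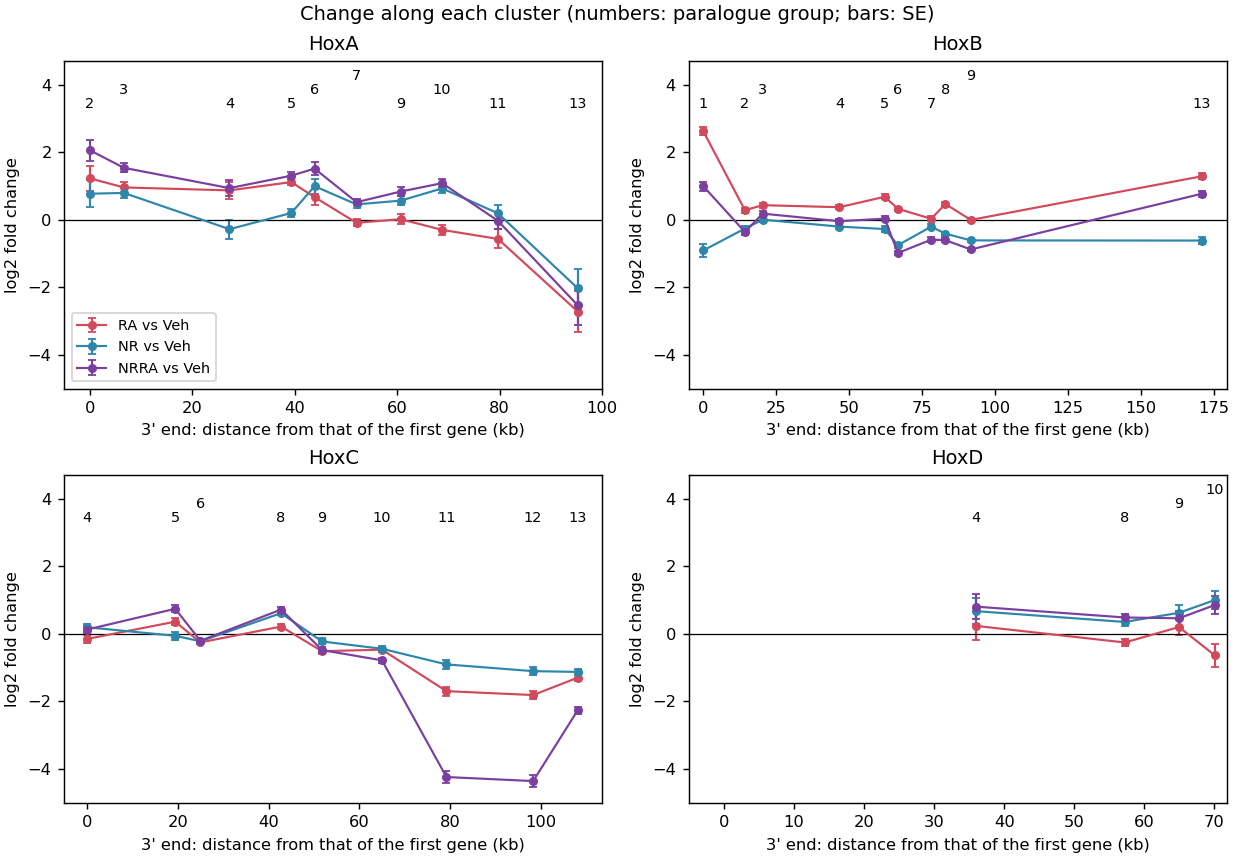
Log2 change against Veh in RA, NR and NRRA (y axis, bars are SE) against the distance of each gene's 3′ end from that of the lowest-numbered gene described in its cluster (x axis, kb), with paralogue numbers along the top and only tested genes drawn. In HoxC the 3 lines part beyond group 10 and reach -4.24 and -4.36 in NRRA at groups 11 and 12, and in HoxB the RA line is high at both ends.

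Noncoding genes of the clusters gave a further reading at the same places, 9 of 10 being tested. In RA against Veh 2 of the 9 were called, 22.2% beside 7.49% of all genes. For NR the count was 1, 11.1% beside 8.29%, and for NRRA 3, 33.3% beside 15.9%. These calls were of *Hotair*, *Hoxaas2* and *Haglr*, and no other gene of the list was called against Veh. *Hotair* (chr15:102944062-102947730, minus strand), a long noncoding RNA between *Hoxc11* and *Hoxc12*, gave 1.34 and 2.29 CPM in Veh, 0.765 and 0.971 with RA, 1.54 and 1.37 with NR, and 0.357 and 0.161 with NRRA. NRRA was lowest. It fell in RA against Veh (log2 change -1.03, SE 0.325, adjusted p = 0.0124), in NRRA against Veh (log2 change -2.80, SE 0.401, adjusted p = 1.14e-06), in NRRA against NR (log2 change -2.49) and in NRRA against RA (log2 change -1.78), and its interaction value was -1.46 (adjusted p = 0.0805). *Hoxaas2*, which runs opposite to the genes near *Hoxa3*, gave 0.545 and 0.469 CPM in Veh, 1.68 and 1.84 with RA, 2.07 and 1.56 with NR, and 2.64 and 2.15 with NRRA, and rose in all 3 against Veh with log2 changes of 1.79, 1.81 and 2.22. Its interaction value was -1.38 (SE 0.414, adjusted p = 0.0260), so that on the log2 scale both treatments together gave less than the sum of each. *Haglr*, beside *Hoxd1*, rose in NRRA against Veh (log2 change 2.18, SE 0.632, adjusted p = 0.00443) from 0.198 and 0.0521 CPM to 0.679 and 0.514 CPM. *Hottip* had 0 counts in every library.

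Several Hox genes share exon sequence with other annotated genes, and the strand setting of the counting is not given in the sources used here. Of the exon bases of *Hoxb3* 52.9% overlap *Hoxb3os* on the opposite strand, of *Hoxa11* 35% overlap *Hoxa11os*, of *Hoxb2* 27.3% overlap *Hoxb3os*, of *Hoxa3* 25.4% overlap opposite-strand genes that include *Hoxaas2*, and of *Hoxa7* 20.4% overlap *Hoxaas3*, so the values of these genes and their partners are uncertain. For *Hoxa4* the overlap with an opposite-strand gene is 16.0%. *Hoxd3* and *Hoxd4* overlap on the same strand over 62.3% and 52.3% of their exon bases, together with a further transcript, and 15.0% of *Hoxa2* overlaps another annotated gene on its own strand. The exons of *Hoxb1*, *Hoxb6*, *Hoxb8*, *Hoxb13*, *Hoxa5*, *Hoxa6*, *Hoxa10*, *Hoxa13*, *Hoxc11*, *Hoxc12* and *Hoxc13* overlap no other annotated exon.

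Hox proteins bind DNA together with TALE homeodomain partners of the PBX, MEIS and PKNOX families. Of 8 such genes, all tested, none was called in RA against Veh, beside 7.49% of all genes. *Meis2* alone was called in NR and in NRRA against Veh, 12.5% of the list beside 8.29% and 15.9% of all genes. It gave 11.6 and 11.1 CPM in Veh, 15.3 and 15.4 with RA, 24.4 and 22.2 with NR, and 32.4 and 33.9 with NRRA, with no overlap between conditions, and rose with restriction alone (log2 change 1.03, adjusted p = 3.15e-10) and with both treatments (log2 change 1.55, adjusted p = 1.02e-14). *Meis2* also rose in NRRA against RA (log2 change 1.11), and none of the 8 was called in NRRA against NR or in the interaction.

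Of 9 known regulators of Hox transcription, 7 were tested. In RA against Veh 3 of the 7 were called, 42.9% beside 7.49% of all genes. The share was also 42.9% in NRRA against Veh, beside 15.9% of all genes. *Cdx1*, a caudal-type activator of Hox genes that RA induces in the embryo, gave 0.198 and 0 CPM in Veh, 1.94 and 0.867 with RA, 0.0482 and 0 with NR, and 2.25 and 2.12 with NRRA, and was called higher in RA (adjusted p = 5.10e-05) and in NRRA (adjusted p = 2.67e-07) against Veh. *Gbx2*, which acts at the midbrain-hindbrain border, gave 0.792 and 1.25 CPM in Veh, 7.90 and 8.05 with RA, 0.578 and 0.645 with NR, and 4.04 and 3.92 with NRRA, with log2 changes of 2.97 in RA and 1.96 in NRRA. *Egr2*, the hindbrain activator of *Hoxa2* and *Hoxb2*, moved opposite to *Hoxa2*, with 38.2 and 32.6 CPM in Veh, 8.51 and 8.18 with RA, 25.8 and 25.6 with NR, and 2.32 and 2.6 with NRRA. It fell in RA (log2 change -2.09, adjusted p = 1.25e-15) and in NRRA (log2 change -3.84, adjusted p = 2.82e-20), and was called lower in the interaction (log2 difference -1.29). *Hoxb2* moved opposite to *Egr2* in RA (log2 change 0.28) but was lower than Veh, as *Egr2* was, in NR (-0.26) and NRRA (-0.36). The other tested regulators, *Kmt2a*, *Men1*, *Gdf11* and *Fgf8*, were called in none of the 6 comparisons, and *Cdx2* and *Cdx4* were too low to be tested.

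Of 12 genes that flank the clusters, 10 were tested. In RA against Veh 1 was called, 10% beside 7.49% of all genes, and 3 were higher and 2 lower at the adjusted p alone. In NRRA against Veh 1 was called, 10% beside 15.9% of all genes, and 2 were higher and 4 lower at the adjusted p alone. *Lnpk*, beside HoxD, stayed under 2-fold, with means of 11.2 ± 0.652 CPM in Veh, 20.1 ± 0.117 with RA, 14.3 ± 0.903 with NR, and 18.9 ± 1.33 with NRRA (SD, n = 2; log2 change in RA 0.85, SE 0.0949, adjusted p = 5.30e-08). *Skap1*, next to *Hoxb1*, gave 1.29 and 1.51 CPM in Veh, 3.16 and 2.95 with RA, 1.54 and 1.71 with NR, and 3.25 and 3.76 with NRRA, and rose in RA (log2 change 1.12, adjusted p = 0.000237), in NRRA against Veh (1.33, adjusted p = 6.94e-06) and in NRRA against NR (1.10, adjusted p = 4.93e-05). *Ttll6*, beyond *Hoxb13*, gave 0.991 and 0.677 CPM in Veh, 1.07 and 1.87 with RA, 2.02 and 2.39 with NR, and 0.965 and 1.03 with NRRA. It was highest in NR, where it rose against Veh (log2 change 1.40, adjusted p = 0.000549). It was called lower in NRRA against NR (log2 change -1.15) and in the interaction (log2 difference -2.02). The other 8 tested, among them *Calcoco1* on the side of *Hoxc13*, *Smug1* and *Cbx5* on the side of *Hoxc4* and *Mtx2* beside HoxD, were called in none of the 6 comparisons.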

How the data were processed

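The deposited table holds whole-number counts per gene for all 8 libraries. The authors made these counts with bcl2fastq, STAR 2.6.1c and featureCounts 1.6.4 on mm10, as the submitters' processing notes list them; the annotation release and the strand setting are not given in the sources used here. Depth was 19261333 to 30023585 counts per library, which sets the precision of low genes such as *Hoxa13*. The labels put 2 libraries in each of the groups Veh, RA, NR (EBSS in the labels) and NRRA.

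The counts were fitted in edgeR 4.0.16 (R 4.3.3) with TMM scaling, filterByExpr, 1 coefficient per group over all 8 libraries and the quasi-likelihood test, and p-values were adjusted by Benjamini-Hochberg over all 20477 genes kept. SE is the log2 change divided by the square root of F. The common coefficient of variation between libraries of a condition was 3.35%, and SE and adjusted p rest on that small spread. Whether it covers the variation between separate cultures cannot be told from the labels. All tests were two-sided. The fit was tested on simulated data. Gene lengths, positions and exon overlaps came from GENCODE M21 (GRCm38, the build of mm10), in which 55240 of 55421 gene identifiers and all 38 Hox genes described were found. RPKM used merged exon lengths. A Hox gene that met the rule and 1 gene each of the cofactor and regulator lists are not reported here; the fit included them and the counts over members and lists leave them out. The members, gene lists and rule for named genes were chosen with earlier results of these data known. That rule gave full values for members called in at least 1 comparison with a mean of at least 50 counts per library. *Hoxa2*, *Hoxa13* and *Hoxd10*, which were called below that mean, and the members cited for a contrast with a neighbour are shown with their values too.

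Alternatives were DESeq2 1.42.0, its size factors, no filter, no fold threshold, a block for the replicate number and leaving out each library in turn. Replicate numbers were not used to pair libraries. Figures were drawn with matplotlib 3.10.9.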

Additional observations from a re-analysis of the deposited data

Results flagged for a closer look

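Among the Hox cluster genes, *Hoxc11* and *Hoxc12* were singled out because their RA effects in complete and in restricted medium differed by the test of the interaction. RA lowered *Hoxc11* from a mean of 17.9 to 5.51 CPM in complete medium and from 9.52 to 0.946 CPM in restricted medium, a log2 difference between the effects of -1.64 (SE 0.267, adjusted p = 8.72e-05). For *Hoxc12* the means were 13.6 and 3.89 CPM in complete medium and 6.38 and 0.664 CPM in restricted medium, a log2 difference of -1.44 (SE 0.263, adjusted p = 0.000333). Both genes were lower with RA in 2 of 2 libraries in each medium.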

How the results depend on the processing

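The count of Hox genes called stayed within 1.5 times its value under DESeq2, DESeq2 size factors and no filter on low counts. With no fold threshold it became 22 in RA against Veh, 25 in NR against Veh, 27 in NRRA against Veh, 20 in NRRA against NR, 25 in NRRA against RA and 11 in the interaction. Leaving out each library in turn gave 8 to 9, 3 to 4, 9 to 12, 8 to 8, 7 to 10 and 2 to 2 in the same order; a condition left with 1 library was assumed to vary like the others. The correlation of same-numbered deviations ran from -0.056 to 0.051 over pairs of groups. With 1 deviation per group it cannot tell whether same-numbered libraries share a culture or a day. With a replicate block the counts were 8, 4, 9, 8, 7 and 2, as without it.

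Of the 38 values of single Hox genes called in a comparison, none reversed under any of these settings. Those that lost the call were *Hoxa2* in RA against Veh and *Hoxa13*, *Hoxc12* and *Hoxd10* in NR against Veh. DESeq2 gave *Hoxa13* a log2 change of -2.05 (adjusted p = 0.0620), and its size factors gave *Hoxd10* 0.997, just under 2-fold; the cause was not tested. With 2 libraries per condition, differences under 2-fold in genes of few counts were the least certain.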
